A study of Mus musculus with 36 samples.

Results

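Stimulation of wild-type naive CD4 T cells was examined in 6 of the 36 samples of a mouse array series, the 3 labelled Th0_WT and the 3 labelled Naive_WT. The WT Th0 samples are CD4 T cells from wild-type littermates that were sorted as naive cells and cultured for 72 h on a plate coated with anti-CD3 in the presence of dissolved anti-CD28, in the condition named Th0. The WT naive samples are sorted naive CD4 T cells of the same genotype without stimulation. Values of the stimulated wild-type Th1, Th2, Th17 and Treg conditions (WT, 72 h, 3 samples each) and of TRIM28-knockout cells (KO, 3 Th0 and 3 naive samples) are given where they bear on this response. The labels name no cytokine, strain, age or sex, nor the promoter or Cre that removes Trim28 in the KO mice. Nor do they tie a sample to an animal, and the p-values therefore rest on sample-to-sample spread that may be technical.

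A naive T cell is small and does not divide. Binding of its receptor, which signals through CD3, together with costimulation through CD28 makes it enter the cell cycle, enlarge its protein, lipid and nucleotide synthesis, express the high-affinity receptor for interleukin-2 (IL-2) and leave the programme of recirculation through lymph nodes. Genes of the first hours of signalling, such as Fos and Egr1, are transient, so a sample at 72 h reads the later, proliferating stage. In a bulk sample fewer cells of a type and less RNA per cell cannot be told apart.

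The values were log2 intensities from robust multi-array averaging (RMA), with which levels can be compared between samples for 1 gene but not between genes. A change is the log2 level in WT Th0 minus that in WT naive, so a change of 1 is 2-fold. The 22180 genes named by a single symbol were filtered to 13082 genes, which were tested in limma, and a gene was called at an adjusted p under 0.05. Samples of a group correlated at 0.989 to 0.994 (WT Th0) and 0.986 to 0.992 (WT naive) over the tested genes, and samples of different groups at 0.884 to 0.903. The median standard deviation (SD) of a gene was 0.102 among WT Th0 samples and 0.125 among WT naive samples. The 3 arrays a group limit the precision. The T cell genes Cd4, Cd3e, Cd3d, Cd3g and Thy1 were above 10 in all 6 samples.

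One WT naive sample stood apart from the other two. Xist, which is transcribed from the inactive X chromosome of females, had 3.69, 3.92 and 3.96 in WT Th0, against 11.12, 4.12 and 3.87 in WT naive, and the Y-linked Kdm5d had 9.32, 9.18 and 9.29 in WT Th0, against 4.57, 9.48 and 9.38. By these genes WT naive 1 came from a female and the other 5 samples from males. WT naive 1 was also the highest WT naive sample in Il2ra, Foxp3, Lrrc32, Ctla4 and the heat shock gene Hspa1b. Among the stimulated samples WT Th0 2 was the highest in Il2, Tnfrsf9 and Nr4a3. Values without each of these samples are given where they change a result.

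No group was cultured without stimulation, so stimulation and 72 h in culture cannot be told apart, and stimulation here names both. Between WT Th0 and WT naive cells 7006 of the 13082 genes tested changed. Of these 4085 were higher in WT Th0 (31.2%) and 2921 lower (22.3%), which is the background for the counts that follow. At 2-fold or more, 1228 were higher (9.39%) and 551 lower (4.21%), and at 8-fold or more 174 were higher and 17 lower. The median change of all genes was 0.045. Higher genes made up 58.3% of those called in the deposited scaling, 57.7% (3999 higher, 2936 lower) with samples centred on their medians, 52.4% (3716 and 3372) after cyclic loess and 43.8% (3199 and 4097) after another quantile normalization, which moved the median of all genes to -0.065. Small changes of either sign therefore depend on the scaling, and the directions below were the same under the 4 scalings unless stated.

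**Figure D1:**
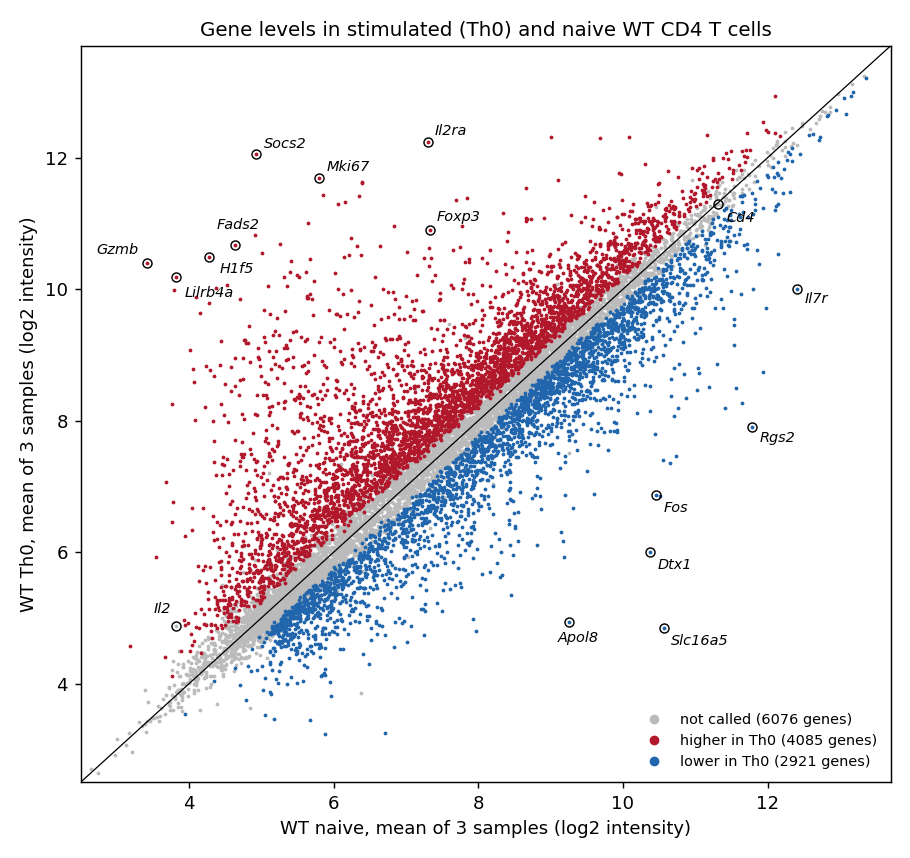
Mean log2 intensity of 3 samples in WT Th0 cells (vertical) against WT naive cells (horizontal) for 13082 genes, with 4085 called higher in red, 2921 called lower in blue and the identity line in black. Among the labelled genes Socs2, Gzmb and Lilrb4a lie farthest above the line, Slc16a5 and Dtx1 farthest below it, and Cd4 on it.

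Rises and falls were ranked among called genes whose 3 WT Th0 samples all lay beyond the 3 WT naive samples. Uncharacterized symbols, small RNAs, olfactory and vomeronasal receptors, antibody and T cell receptor segments and sex-linked genes were left out. On this ranking the largest rises were in a feedback inhibitor of cytokine signalling, a cytotoxic granule enzyme, an inhibitory receptor and genes of the cell cycle. Socs2, a STAT5-induced suppressor of cytokine signalling, had 11.81, 12.27 and 12.11 in WT Th0, against 4.98, 5.21 and 4.6 in WT naive (change 7.14, SE 0.28, 141-fold, adjusted p = 1.6e-17). A further probe set of Socs2 had a change of 4.37. Gzmb, the granule serine protease granzyme B, had 9.99, 10.62 and 10.59 in WT Th0, against 3.62, 3.21 and 3.41 in WT naive (change 6.99, SE 0.70, 127-fold, adjusted p = 2.4e-09). Lilrb4a, an immunoglobulin-like receptor with inhibitory motifs, had 9.71, 10.44 and 10.41 in WT Th0, against 3.49, 3.78 and 4.17 in WT naive (change 6.37, SE 0.22, 82.6-fold, adjusted p = 5.9e-19). Separation of the groups was a condition of the ranking. In these 3 genes every WT naive sample lay at 5.21 or below and every WT Th0 sample at 9.71 or above. The next rises were in the histone genes H1f5 (73.9-fold) and H2bc12 (73.3-fold), the fatty acid desaturase gene Fads2 (65.4-fold), the cell cycle genes Aurkb (60.5-fold), Mki67 (59.4-fold), E2f8 (55.3-fold), Nuf2 (50.2-fold), Prr11 (46.9-fold), Cdk1 (46.9-fold), Kif15 (45.6-fold) and Esco2 (44.9-fold), and Lrrc32 (48.2-fold), whose product GARP holds latent TGF-beta at the cell surface.

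The largest falls, ranked in the same way, were in a transporter, a Notch regulator and signalling brakes of the unstimulated cell. Slc16a5, a member of the monocarboxylate transporter family, had 4.98, 4.64 and 4.9 in WT Th0, against 10.48, 10.59 and 10.63 in WT naive (change -5.73, SE 0.15, 53.1-fold lower, adjusted p = 3.4e-21). Dtx1, the E3 ligase Deltex1 that is linked to T cell anergy, had 5.96, 6.02 and 6.01 in WT Th0, against 10.27, 10.53 and 10.33 in WT naive (change -4.38, SE 0.13, 20.8-fold lower). A further probe set of each gene fell less, by 3.03 for Slc16a5 and by 2.19 for Dtx1. Rgs2, which limits signalling of G protein-coupled receptors, had 7.67, 8.15 and 7.87 in WT Th0, against 11.72, 11.84 and 11.82 in WT naive (change -3.9, SE 0.35, 14.9-fold lower). A further probe set of Rgs2 had a change of -1.69. Apol8 was 19.9-fold lower, Rflnb 12.6-fold, Fos 12.1-fold, the phosphatase gene Dusp10 10.4-fold, the sialyltransferase gene St8sia6 9.79-fold, Ppp1r15a 9.7-fold, Mctp2 9.58-fold, the kinase gene Sik1 9.27-fold, Tnfaip3 9.09-fold, Nr4a3 8.93-fold and Ggt5 8.61-fold. Tex45 was 9-fold lower, and its WT naive samples were uneven, with 6.4 in WT naive 1 against 8.68 and 8.82 in the others, and without that sample it was 15.5-fold lower.

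**Figure D2:**
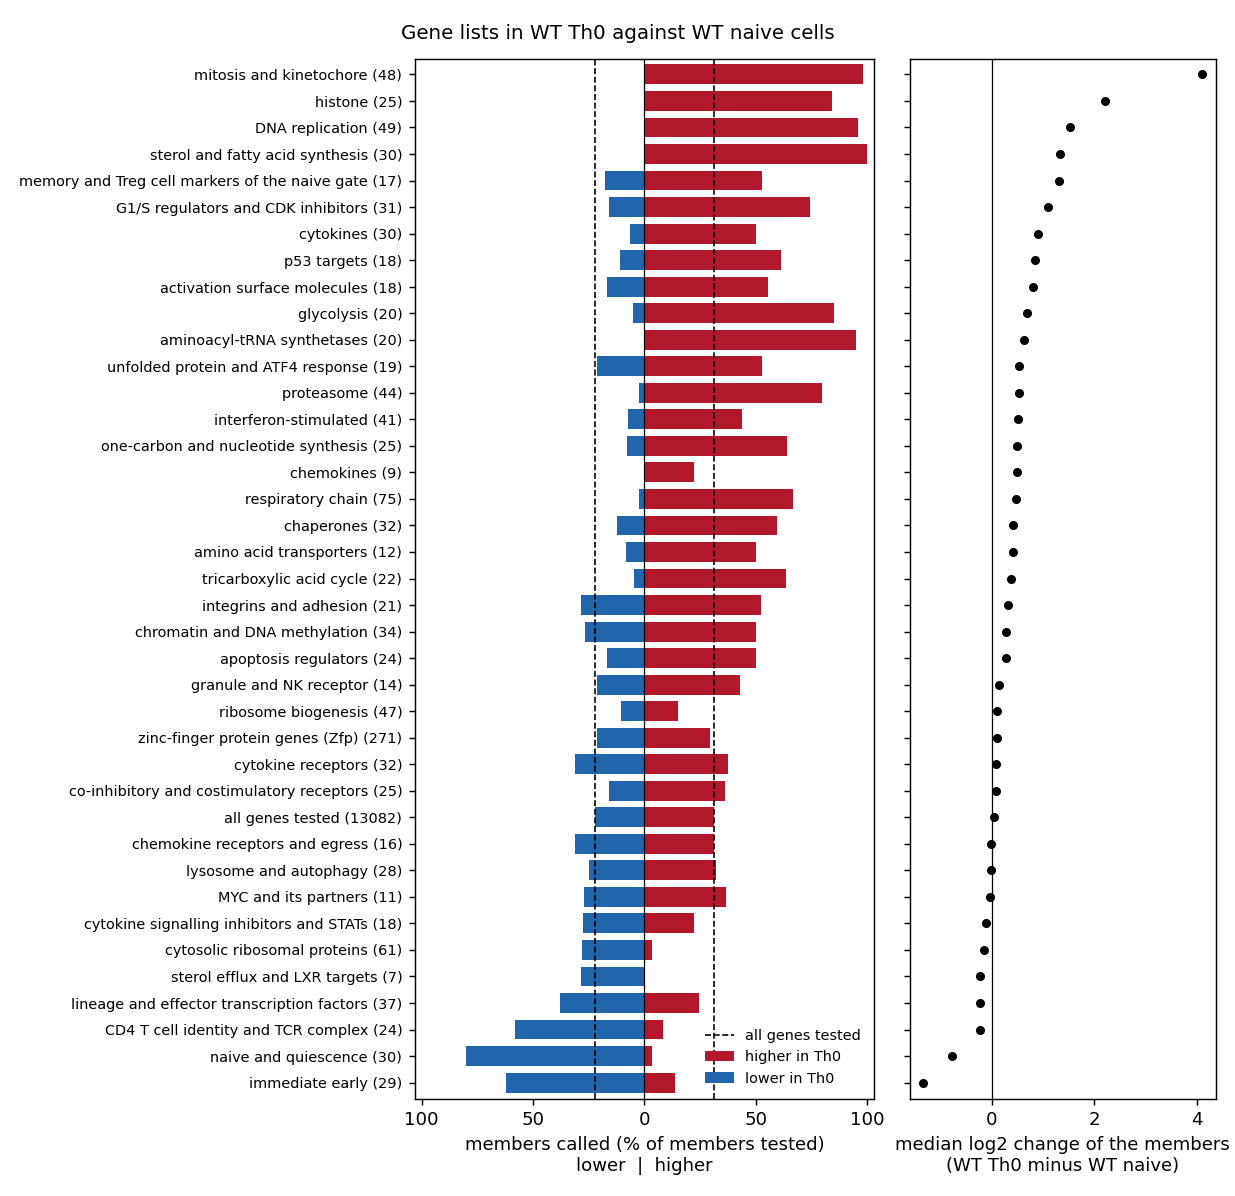
Left, share of the tested members of each gene list that were called higher (red) or lower (blue) in WT Th0 against WT naive, with the number tested in parentheses and the shares over all 13082 genes as dashed lines. Lists with fewer than 7 tested members are not drawn, and all genes tested have a row of their own. Right, the median log2 change of the members. Mitosis genes stand at the top with a median of 4.09 and immediate early genes at the bottom with -1.33.

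Genes of the cell cycle rose nearly as a whole, and those of mitosis rose most. Of 48 tested genes of mitosis and the kinetochore 47 were higher and none lower, with a median change of 4.09. Cdk1, the kinase that drives entry into mitosis, had 10.58, 10.59 and 10.5 in WT Th0, against 5.03, 4.73 and 5.26 in WT naive (change 5.55, SE 0.45, 46.9-fold, adjusted p = 4.2e-11). Mki67, the proliferation antigen Ki-67, had 11.66, 11.66 and 11.77 in WT Th0, against 5.93, 5.62 and 5.85 in WT naive (change 5.89, SE 0.42, 59.4-fold). Aurkb, the kinase of the chromosomal passenger complex, had 10.79, 10.85 and 10.84 in WT Th0, against 5.1, 5.0 and 4.62 in WT naive and Kif11, the motor that separates the spindle poles, had 10.99, 10.94 and 11.1 in WT Th0, against 5.39, 5.72 and 5.83 in WT naive. In each of these genes every WT Th0 sample lay far above every WT naive sample. The median of the members' mean levels was 10.1 in WT Th0 and 5.66 in WT naive.

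Of 49 tested DNA replication genes 47 were higher and none lower, with a median change of 1.52. In all 49 the 3 WT Th0 samples lay above the 3 WT naive samples, which held for 4726 of all 13082 genes. Mcm2, a subunit of the replicative helicase, had 10.08, 10.23 and 10.12 in WT Th0, against 8.72, 8.81 and 8.77 in WT naive (change 1.38, SE 0.22, 2.6-fold). Rrm2, the subunit of ribonucleotide reductase whose level limits the making of deoxynucleotides, had 10.33, 10.57 and 10.57 in WT Th0, against 6.32, 6.14 and 5.95 in WT naive (change 4.36, SE 0.36, 20.5-fold), and Tk1, thymidine kinase, had 9.88, 10.02 and 9.78 in WT Th0, against 5.62, 5.75 and 5.55 in WT naive (change 4.26, SE 0.31). Pole, the leading-strand polymerase, rose 13.5-fold and Cdc45, a helicase activator, 9.52-fold, while a further probe set of Pole had a change of -0.01. A further probe set of Rrm2 had a change of 1.26. Of 25 tested histone genes 21 were higher and none lower, with a median change of 2.2. H1f5, a linker histone, had 10.53, 10.4 and 10.52 in WT Th0, against 4.6, 4.22 and 4.01 in WT naive, and H2ac10 had 12.35, 12.16 and 12.41 in WT Th0, against 9.08, 8.82 and 9.14 in WT naive (change 3.3, SE 0.25). Histone genes of a family are near-identical in sequence, so their probe sets may share signal.

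Regulators of the G1 to S transition moved in both directions. Of 31 tested members 23 were higher and 5 lower (3 lower without WT naive 1), with a median change of 1.09. E2f8, a repressor of the E2F family, had 9.71, 10.0 and 9.93 in WT Th0, against 4.17, 4.25 and 3.85 in WT naive (change 5.79, SE 0.47). E2f7, its close relative, had 9.21, 9.23 and 9.13 in WT Th0, against 5.46, 5.89 and 6.04 in WT naive (change 3.39, SE 0.36), and the activator E2f2 had 9.74, 9.87 and 9.84 in WT Th0, against 5.99, 6.68 and 6.4 in WT naive (change 3.46, SE 0.25). The D-type cyclin genes Ccnd2 and Ccnd3 rose 1.41-fold and 1.66-fold. Inhibitors of cyclin-dependent kinases were split. Cdkn1a, which encodes p21, had 10.24, 11.23 and 10.87 in WT Th0, against 6.15, 6.47 and 6.08 in WT naive (change 4.54, SE 0.38, 23.3-fold) and Cdkn2c, which encodes p18, rose 14.8-fold, while Cdkn1b, which encodes p27 and keeps naive cells out of cycle, had 9.89, 9.83 and 9.96 in WT Th0, against 10.58, 10.28 and 10.22 in WT naive (change -0.47, SE 0.15, adjusted p = 0.0091, and 0.069 without WT naive 1). Rbl2, the retinoblastoma relative p130 of resting cells, was 1.37-fold lower, and Myb was 3.06-fold lower while its relative Mybl1 was 11.6-fold higher. A further probe set of Myb had a change of -0.905.

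Promoters of 5 of these genes are shown with the motifs known from cell cycle promoters. The windows reach from 250 bases before to 50 after the annotated start, from RefSeq on GRCm38.p6, and 10234 of the 13082 tested genes had one. Both strands were searched for the cell cycle homology region TTTGAA (CHR), for the NF-Y box CCAAT and for the E2F motifs TTTCCCGC and TTTGGCGC, whose matches may abut or overlap. CHR stood in 28 of 40 promoters of mitosis genes (70%), against 12.1% of all 10234, and CCAAT in 27 of 40 (67.5%), against 38.5%. E2F motifs stood in 13 of 41 promoters of replication genes (31.7%) and 6 of 24 of G1 to S regulators (25%), against 3.11% of all. Below, capitals mark CHR and CCAAT in Cdk1 (chr10:69352863-69353162, minus strand) and Mki67 (chr7:135716330-135716629, minus strand), E2F and CHR in Kif15, a mitotic motor (chr9:122950831-122951130, plus strand), and E2F in E2f2 (chr4:136172024-136172323, plus strand) and E2f7 (chr10:110745189-110745488, plus strand). A match on the other strand reads as the reverse complement, such as ATTGG for CCAAT.
Cdk1: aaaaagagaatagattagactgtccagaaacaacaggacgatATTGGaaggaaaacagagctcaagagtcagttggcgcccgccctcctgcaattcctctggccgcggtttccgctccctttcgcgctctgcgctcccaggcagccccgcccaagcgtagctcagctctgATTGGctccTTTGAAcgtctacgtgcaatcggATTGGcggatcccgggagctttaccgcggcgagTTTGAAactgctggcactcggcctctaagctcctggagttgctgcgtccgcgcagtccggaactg
Mki67: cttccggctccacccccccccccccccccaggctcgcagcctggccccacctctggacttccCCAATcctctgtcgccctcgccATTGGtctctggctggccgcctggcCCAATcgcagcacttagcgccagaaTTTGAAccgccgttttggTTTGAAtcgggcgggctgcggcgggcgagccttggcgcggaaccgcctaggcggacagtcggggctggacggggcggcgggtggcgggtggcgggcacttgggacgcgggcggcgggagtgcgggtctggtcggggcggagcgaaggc
Kif15: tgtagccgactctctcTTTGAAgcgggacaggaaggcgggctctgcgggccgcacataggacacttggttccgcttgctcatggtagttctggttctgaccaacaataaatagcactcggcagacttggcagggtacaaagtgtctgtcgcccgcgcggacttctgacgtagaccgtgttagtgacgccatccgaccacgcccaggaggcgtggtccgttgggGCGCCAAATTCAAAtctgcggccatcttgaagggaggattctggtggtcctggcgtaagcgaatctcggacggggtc
E2f2: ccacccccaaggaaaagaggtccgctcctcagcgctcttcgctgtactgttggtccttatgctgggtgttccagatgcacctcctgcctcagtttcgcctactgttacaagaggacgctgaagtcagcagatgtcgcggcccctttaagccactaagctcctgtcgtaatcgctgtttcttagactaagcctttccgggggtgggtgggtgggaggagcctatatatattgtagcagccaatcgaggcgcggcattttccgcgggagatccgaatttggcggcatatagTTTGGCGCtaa
E2f7: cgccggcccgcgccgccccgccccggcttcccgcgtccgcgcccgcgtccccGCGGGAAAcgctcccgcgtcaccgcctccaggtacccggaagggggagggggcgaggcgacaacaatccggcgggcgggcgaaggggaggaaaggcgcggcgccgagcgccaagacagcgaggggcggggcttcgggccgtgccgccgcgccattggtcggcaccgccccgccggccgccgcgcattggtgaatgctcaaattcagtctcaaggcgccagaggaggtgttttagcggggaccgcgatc
In Kif15 an E2F match directly adjoins a CHR match, and Kif15 had 9.77, 9.69 and 9.9 in WT Th0, against 4.25, 4.15 and 4.44 in WT naive (change 5.51, SE 0.47, 45.6-fold). These matches are a description of the letters, and binding was not measured.

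**Figure D3:**
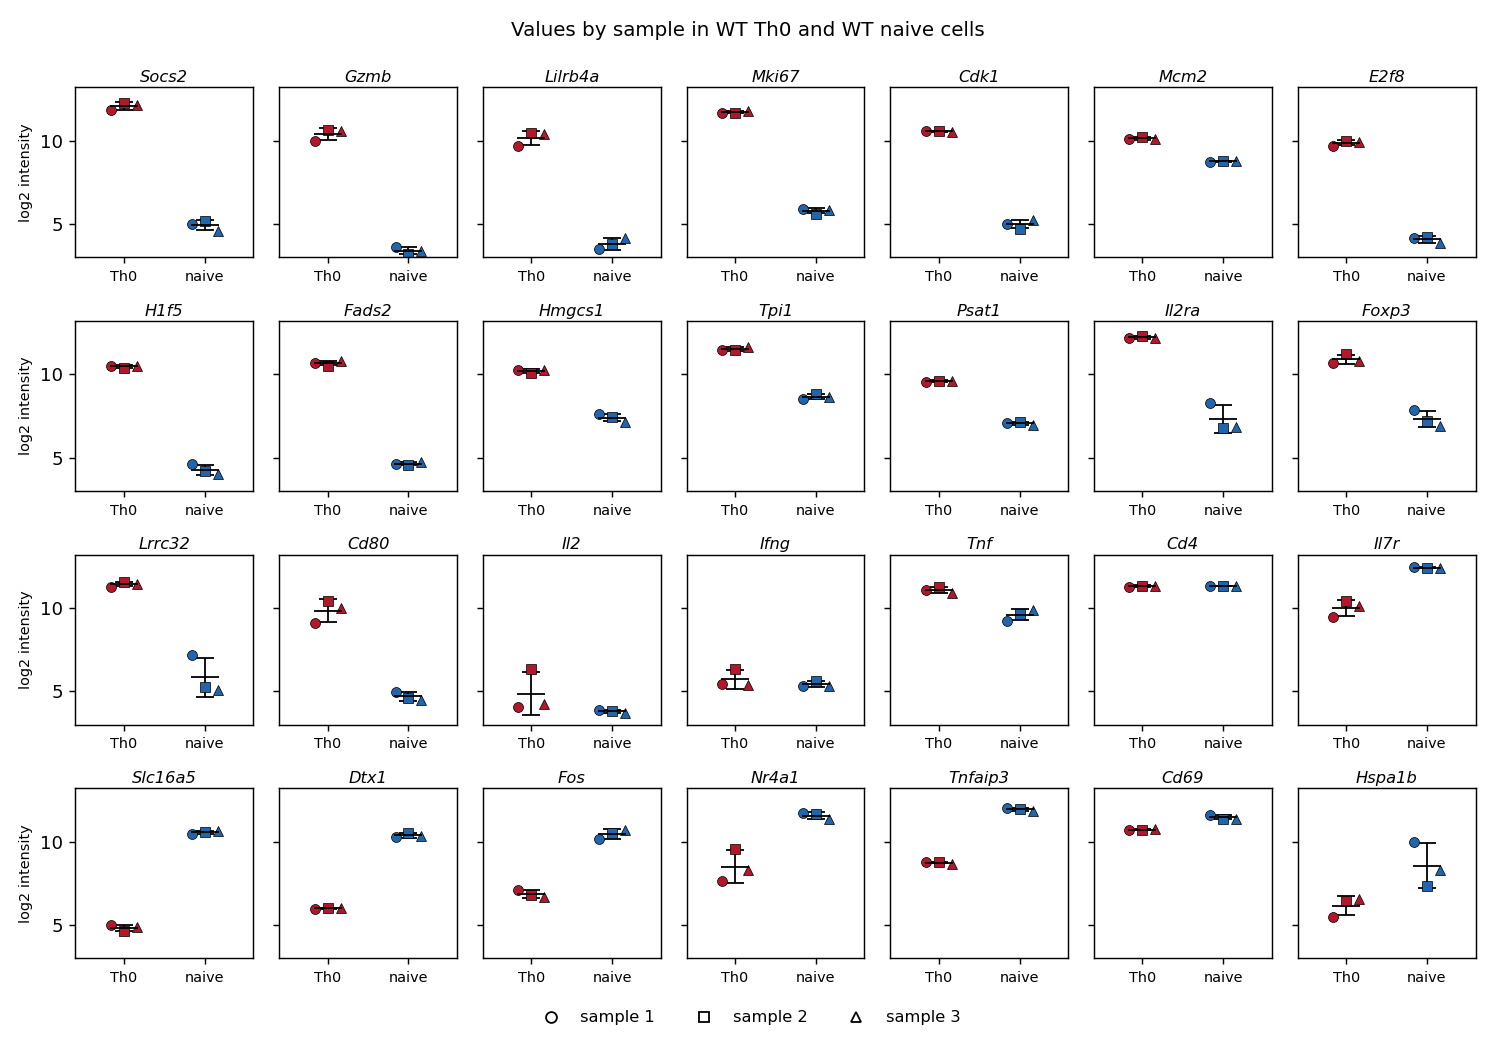
Log2 intensity of 28 genes in each of the 3 WT Th0 samples (red, left) and 3 WT naive samples (blue, right), with the mean as a wide bar and the SD as whiskers; symbols mark the sample number. The groups overlap in Cd4 and Ifng, WT Th0 2 stands above the others in Il2, and WT naive 1 stands above the others in Il2ra, Lrrc32 and Hspa1b.

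Genes of sterol and fatty acid synthesis rose without exception among those tested. All 30 tested members were higher, with a median change of 1.33. In all 30 the WT Th0 samples lay above the WT naive samples, which held for 4726 of all 13082 genes. Fads2, the delta-6 desaturase of polyunsaturated fatty acid synthesis, had 10.69, 10.53 and 10.78 in WT Th0, against 4.62, 4.56 and 4.73 in WT naive (change 6.03, SE 0.56, 65.4-fold, adjusted p = 5.9e-10). Scd1, the stearoyl-CoA desaturase, had 9.18, 8.62 and 8.5 in WT Th0, against 4.36, 4.32 and 4.19 in WT naive (change 4.48, SE 0.48, 22.3-fold), and Elovl6, a fatty acid elongase, rose 5.29-fold. In the cholesterol branch Hmgcs1, which makes HMG-CoA, had 10.28, 10.08 and 10.27 in WT Th0, against 7.59, 7.45 and 7.17 in WT naive (change 2.81, SE 0.22, 6.99-fold), Sqle, squalene epoxidase, rose 7.43-fold and Fdps, which makes farnesyl diphosphate, 5.38-fold. The 7 tested genes of sterol efflux and LXR targets showed no rise and 2 falls, and 5 were called neither way. The share lower was 28.6%, near the 22.3% of all genes. Abca1, the cholesterol exporter, had 6.08, 5.97 and 6.26 in WT Th0, against 8.34, 9.05 and 9.04 in WT naive (change -2.7, SE 0.34, 6.52-fold lower), and Mylip, the ligase that degrades the LDL receptor, was 3.43-fold lower.

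CCAAT, which the SREBP partner NF-Y reads, stood in 19 of 24 promoters of sterol and fatty acid genes (79.2%), against 38.5% of all promoters, and the sterol regulatory element of the form CACCCCAC in 1 of 24 (4.17%), against 3.07%. The Hmgcs1 promoter (chr13:119690101-119690400, plus strand) holds both, in capitals.
Hmgcs1: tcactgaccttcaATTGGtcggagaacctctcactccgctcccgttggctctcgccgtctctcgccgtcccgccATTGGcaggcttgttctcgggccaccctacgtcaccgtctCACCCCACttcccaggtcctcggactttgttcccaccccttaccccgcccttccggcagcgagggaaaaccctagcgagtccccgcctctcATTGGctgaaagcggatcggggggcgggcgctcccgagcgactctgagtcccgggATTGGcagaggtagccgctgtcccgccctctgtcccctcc
Only this spelling of the sterol element was searched, and other spellings of it exist.

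Glycolysis rose in most of its steps. Of 20 tested members 17 were higher and 1 lower, with a median change of 0.68. Tpi1, triosephosphate isomerase, had 11.49, 11.45 and 11.67 in WT Th0, against 8.52, 8.81 and 8.64 in WT naive (change 2.88, SE 0.18, 7.38-fold). Hk2, the inducible hexokinase, had 7.83, 7.55 and 7.99 in WT Th0, against 5.87, 5.99 and 5.51 in WT naive (change 2.0, SE 0.19, 4-fold), Aldoc rose 5.11-fold, Slc16a3, the lactate exporter, 5-fold, and Pgk1 3.5-fold. Slc2a1, the glucose transporter GLUT1, had 11.06, 10.99 and 11.12 in WT Th0, against 10.06, 10.21 and 10.23 in WT naive (change 0.89, SE 0.12, 1.86-fold). A further probe set of Slc2a1 had a change of 0.221. The member that fell was Pdk1, a kinase that holds back the oxidation of pyruvate in mitochondria, 1.46-fold lower, which was not called when its probe sets were averaged.

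Mitochondrial genes rose by smaller amounts. Of 75 tested respiratory chain genes 50 were higher and 2 lower, with a median change of 0.48. Ndufb9, a subunit of complex I, had 10.12, 10.19 and 10.11 in WT Th0, against 8.75, 8.88 and 8.72 in WT naive (change 1.36, SE 0.09). Of 22 genes of the tricarboxylic acid cycle and its feeding reactions 14 were higher and 1 lower, with a median of 0.37. Pcx, pyruvate carboxylase, had 8.59, 9.16 and 8.96 in WT Th0, against 5.66, 5.99 and 5.86 in WT naive (change 3.06, SE 0.33, 8.35-fold), the largest change of the list, and Fh1, fumarase, rose 2.56-fold, while Ogdh was 1.28-fold lower.

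Amino acid supply and one-carbon metabolism rose with them. Of 25 tested genes of one-carbon and nucleotide synthesis 16 were higher and 2 lower (13 and 2 without WT naive 1), with a median of 0.5. Psat1, of serine synthesis, had 9.54, 9.6 and 9.63 in WT Th0, against 7.06, 7.12 and 6.99 in WT naive (change 2.53, SE 0.34, 5.78-fold). Tyms, thymidylate synthase, rose 6.25-fold, Mthfd2, the mitochondrial folate enzyme, 2.82-fold, and Shmt2 2.63-fold. Of 12 amino acid transporters 6 were higher and 1 lower. Slc43a3, a solute carrier counted in this list that is also known to move purine bases, had 9.97, 10.14 and 9.93 in WT Th0, against 6.74, 6.61 and 6.71 in WT naive (change 3.33, SE 0.26, 10.1-fold), Slc7a5, the large neutral amino acid transporter, had 10.81, 10.78 and 10.65 in WT Th0, against 9.69, 9.93 and 10.01 in WT naive (change 0.87, SE 0.23, 1.83-fold), and Slc38a2 was 1.64-fold lower. Tfrc, the transferrin receptor of iron uptake, had 10.22, 10.5 and 10.45 in WT Th0, against 8.46, 8.4 and 8.23 in WT naive (change 2.03, SE 0.20, 4.07-fold).

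The genes of translation did not move as one. Of 20 tested aminoacyl-tRNA synthetases and their partners 19 were higher (15 without WT naive 1) and none lower, with a median change of 0.64. Vars had 10.33, 10.21 and 10.29 in WT Th0, against 9.21, 9.3 and 9.29 in WT naive (change 1.01, SE 0.09), Wars rose 2.01-fold and Tars 1.91-fold. Cytosolic ribosomal protein genes seldom rose, with 2 of 61 higher and 17 lower and a median of -0.15. These are 3.28% and 27.9%, against 31.2% and 22.3% of all genes, and 42 were called neither way. Rps27 had 8.03, 7.61 and 7.87 in WT Th0, against 9.9, 9.91 and 9.8 in WT naive (change -2.04, SE 0.25, 4.1-fold lower), while its paralog Rps27l, a p53 target, had 7.79, 8.09 and 8.0 in WT Th0, against 5.98, 5.99 and 5.93 in WT naive (change 2.0, SE 0.15, 3.99-fold). The second member that rose was Rpl34, which was not called without WT naive 1 (adjusted p = 0.055) or after another quantile normalization. Many processed copies of ribosomal protein genes exist, so their signals are uncertain. Of 47 ribosome biogenesis genes 7 were higher and 5 lower, shares of 14.9% and 10.6% against 31.2% and 22.3% of all genes, while 4 were higher and 12 lower after another quantile normalization and 4 and 6 without WT naive 1. Myc, which drives these genes during early activation, had 10.78, 10.74 and 10.76 in WT Th0, against 9.89, 10.02 and 10.21 in WT naive (change 0.72, SE 0.20, 1.65-fold, adjusted p = 0.0039).

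The CARE motif TGATGCAA, through which ATF4 acts on amino acid stress genes, stood in 3 of 13 promoters of the synthetase list (23.1%) and 4 of 18 of the ATF4 and unfolded protein list (22.2%), against 0.635% of all promoters. Capitals mark it in Yars (chr4:129189653-129189952, plus strand) and Tars (chr15:11399609-11399908, minus strand).
Yars: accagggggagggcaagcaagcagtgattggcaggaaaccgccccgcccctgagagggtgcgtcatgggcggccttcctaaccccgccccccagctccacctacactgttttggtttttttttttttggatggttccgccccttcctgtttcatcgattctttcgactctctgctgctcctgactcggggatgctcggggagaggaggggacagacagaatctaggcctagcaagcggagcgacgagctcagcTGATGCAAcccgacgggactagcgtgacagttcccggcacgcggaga
Tars: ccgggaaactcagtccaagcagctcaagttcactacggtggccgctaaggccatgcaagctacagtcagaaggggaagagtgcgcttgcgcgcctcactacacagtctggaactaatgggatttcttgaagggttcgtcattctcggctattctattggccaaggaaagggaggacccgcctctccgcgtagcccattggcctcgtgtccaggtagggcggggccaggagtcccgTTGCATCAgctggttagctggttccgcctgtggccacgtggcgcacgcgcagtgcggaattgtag
Yars, the tyrosyl synthetase, had 8.96, 8.87 and 8.87 in WT Th0, against 7.91, 8.19 and 8.12 in WT naive (change 0.82, SE 0.14), and Tars, the threonyl synthetase, had 9.28, 9.27 and 9.28 in WT Th0, against 8.22, 8.48 and 8.33 in WT naive (change 0.93, SE 0.14). Of the 19 tested genes of that stress list 10 were higher and 4 lower, with a median of 0.54. Asns, asparagine synthetase, had 9.05, 9.46 and 8.96 in WT Th0, against 7.0, 7.04 and 5.66 in WT naive (change 2.59, SE 0.41, 6.03-fold), and Chac1 rose 2.74-fold, while Atf4 itself was 1.37-fold lower and Ppp1r15a, the phosphatase subunit that restarts translation, had 7.72, 7.35 and 7.32 in WT Th0, against 10.54, 10.79 and 10.9 in WT naive (change -3.28, SE 0.26).

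Proteasome genes rose broadly and chaperones in part. Of 44 tested proteasome genes 35 were higher and 1 lower, with a median of 0.54, led by Psmb5, a catalytic subunit, with 11.32, 11.43 and 11.33 in WT Th0, against 9.97, 10.07 and 9.92 in WT naive (change 1.37, SE 0.13), and Pomp, an assembly factor, 2.39-fold. Of 32 chaperones 19 were higher and 4 lower (2 lower without WT naive 1). Hspd1, mitochondrial Hsp60, rose 2.46-fold and Hsp90b1 2.03-fold, while Hspa5, the chaperone BiP of the endoplasmic reticulum, had 8.88, 8.61 and 8.71 in WT Th0, against 9.61, 9.96 and 10.02 in WT naive (change -1.13, SE 0.19, 2.19-fold lower). Inducible Hsp70 was uneven among naive cells. Hspa1b had 5.51, 6.45 and 6.54 in WT Th0, against 10.01, 7.36 and 8.28 in WT naive (change -2.38, SE 0.68, adjusted p = 0.0042, and -1.65 with 0.055 without WT naive 1), and Hspa1a was not called without that sample either (adjusted p = 0.23).

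Surface molecules of activated T cells rose, led by the IL-2 receptor. Of 18 tested activation molecules 10 were higher and 3 lower, with a median of 0.81. Without WT Th0 2 they were 7 higher and 2 lower, with a median of 0.57. Il2ra, the alpha chain CD25, had 12.16, 12.33 and 12.21 in WT Th0, against 8.27, 6.79 and 6.84 in WT naive (change 4.94, SE 0.24, 30.6-fold, adjusted p = 2.2e-15), and without WT naive 1 its rise was 42.9-fold. Il2rb, the beta chain, had 11.33, 11.56 and 11.26 in WT Th0, against 8.34, 7.71 and 7.46 in WT naive (change 3.54, SE 0.13, 11.7-fold). Cd80, a ligand of CD28 and CTLA-4, had 9.1, 10.43 and 10.01 in WT Th0, against 4.97, 4.61 and 4.51 in WT naive (change 5.15, SE 0.62, 35.4-fold). Ctla4, the inhibitory counterpart of CD28, had 8.63, 9.21 and 9.04 in WT Th0, against 7.49, 6.63 and 6.49 in WT naive (change 2.09, SE 0.23), and the TNF receptors Tnfrsf4 (OX40) and Tnfrsf18 (GITR) rose 5.41-fold and 4.49-fold. Tnfrsf9 (4-1BB) had 7.62, 9.79 and 8.92 in WT Th0, against 7.12, 7.21 and 7.28 in WT naive (change 1.57, SE 0.55, adjusted p = 0.017, and 0.14 without WT Th0 2). Cd44, the marker by which naive cells are told from memory cells, rose 2.47-fold. Cd69, an early activation marker, was higher in the unstimulated cells, with 10.68, 10.73 and 10.77 in WT Th0, against 11.62, 11.39 and 11.39 in WT naive (change -0.74, SE 0.29, adjusted p = 0.032), and was not called when any of the 6 samples was left out. Plaur, the urokinase receptor, was 5.22-fold lower.

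Genes of the naive state fell. Of 30 tested naive and quiescence genes 24 were lower and 1 higher, with a median change of -0.78. Il7r, the receptor of the survival cytokine IL-7, had 9.48, 10.43 and 10.12 in WT Th0, against 12.44, 12.39 and 12.4 in WT naive (change -2.4, SE 0.26, 5.29-fold lower). Als2cl had 8.0, 7.62 and 7.85 in WT Th0, against 9.93, 9.94 and 9.89 in WT naive (change -2.1, SE 0.18), Actn1 was 3.98-fold lower, and Btg1, an antiproliferative gene, had 10.4, 10.61 and 10.6 in WT Th0, against 12.2, 12.12 and 12.1 in WT naive (change -1.61, SE 0.15). Klf2, the factor that maintains recirculation, had 8.85, 8.77 and 8.87 in WT Th0, against 9.96, 10.15 and 9.97 in WT naive (change -1.2, SE 0.17, 2.29-fold lower), and its target S1pr1, the egress receptor, had 10.41, 10.46 and 10.64 in WT Th0, against 11.3, 11.09 and 11 in WT naive (change -0.63, SE 0.14, 1.55-fold lower). Ccr7, the lymph node homing receptor, fell little, with 11.82, 11.67 and 11.65 in WT Th0, against 12.19, 12.07 and 12.01 in WT naive (change -0.38, SE 0.11, 1.3-fold lower). The member that rose was Id3, with an adjusted p of 0.045 that was 0.067 without WT Th0 2 and 0.1 without WT naive 1, and it was not called after another quantile normalization or cyclic loess.

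The T cell receptor machinery was slightly lower, and the lineage marker did not move. Of 24 tested identity and receptor genes 14 were lower and 2 higher, with a median of -0.23. Cd4 had 11.24, 11.3 and 11.35 in WT Th0, against 11.3, 11.32 and 11.31 in WT naive, a change of -0.01 (SE 0.09, adjusted p = 0.92). Cd3e had 12.13, 12.06 and 11.96 in WT Th0, against 12.46, 12.44 and 12.46 in WT naive (change -0.4, SE 0.08), the kinase gene Txk had 10.01, 9.63 and 9.93 in WT Th0, against 11.2, 10.83 and 10.92 in WT naive (change -1.13, SE 0.27) and Ptpn22, a phosphatase that restrains receptor signalling, was 1.87-fold lower. Thy1 was 1.36-fold higher.

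Immediate early genes were higher in the unstimulated cells. Of 29 tested members 18 were lower in WT Th0 and 4 higher (20 and 2 without WT Th0 2), with a median change of -1.33. Fos, the AP-1 subunit, had 7.12, 6.79 and 6.67 in WT Th0, against 10.14, 10.51 and 10.73 in WT naive (change -3.6, SE 0.57, 12.1-fold lower). Egr1 had 5.92, 6.54 and 6.05 in WT Th0, against 8.79, 9.18 and 9.53 in WT naive (change -3.0, SE 0.59, 7.97-fold lower). Nr4a1, which encodes Nur77, a reporter of receptor signalling, had 7.63, 9.56 and 8.29 in WT Th0, against 11.71, 11.64 and 11.36 in WT naive (change -3.08, SE 0.73, 8.44-fold lower), and Tnfaip3, the NF-kappaB inhibitor A20, had 8.77, 8.78 and 8.69 in WT Th0, against 12, 11.96 and 11.84 in WT naive (change -3.18, SE 0.24). The WT Th0 samples were uneven in the Nr4a family, highest in WT Th0 2, and without that sample Nr4a1 was 12.2-fold and Nr4a3 14-fold lower. Per the labels, the naive cells had been selected magnetically and sorted, and how long this took before lysis is not stated. The 4 members that rose included Spry1, an inhibitor of receptor tyrosine kinase signalling, 2.1-fold.

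Among cytokine genes 15 of 30 tested were higher and 2 lower, with a median of 0.89, and 0.38 without WT Th0 2. Tnf had 11.08, 11.25 and 10.89 in WT Th0, against 9.22, 9.67 and 9.88 in WT naive (change 1.49, SE 0.27, 2.8-fold), Lta, lymphotoxin alpha, had 9.49, 10.11 and 9.6 in WT Th0, against 7.01, 6.71 and 6.99 in WT naive (change 2.83, SE 0.37, 7.11-fold), Osm, oncostatin M, had 9.81, 10.15 and 9.82 in WT Th0, against 7.93, 7.89 and 7.97 in WT naive (change 2.0, SE 0.23), and Lif rose 5.21-fold. Ebi3, a subunit of IL-27 and IL-35, had 7.7, 8.12 and 7.59 in WT Th0, against 5.07, 4.44 and 5.13 in WT naive (change 2.92, SE 0.18), and a further probe set of it had a change of 0.37. Fasl, the death ligand, had 6.4, 6.29 and 6.35 in WT Th0, against 8.47, 7.83 and 7.52 in WT naive (change -1.59, SE 0.24, 3.02-fold lower). The signature cytokines of the lineages stayed low. Il2 had 4.05, 6.33 and 4.25 in WT Th0, against 3.87, 3.84 and 3.73 in WT naive (WT Th0 2 standing alone), a change of 1.06 (SE 0.62, adjusted p = 0.15). Ifng had 5.44, 6.37 and 5.38 in WT Th0, against 5.35, 5.63 and 5.33 in WT naive (adjusted p = 0.66), its sign turning without WT Th0 2, and Il17a had 4.22, 4.11 and 3.99 in WT Th0, against 4.37, 4.14 and 4.18 in WT naive (adjusted p = 0.61). Il4 had 4.6, 5.19 and 4.92 in WT Th0, against 4.09, 4.23 and 4.3 in WT naive (change 0.69, SE 0.19, adjusted p = 0.0032).

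Cytokine receptors and their inhibitors were divided. Of 32 tested receptors 12 were higher and 10 lower (37.5% and 31.2%, against 31.2% and 22.3% of all genes). Beside the IL-2 receptor, Il12rb2, the signalling chain of the IL-12 receptor, had 8.8, 9.06 and 8.62 in WT Th0, against 5.14, 5.55 and 5.06 in WT naive (change 3.58, SE 0.31, 11.9-fold) and Il18rap rose 7.9-fold, while Tgfbr2, which binds TGF-beta, had 9.03, 8.9 and 9.05 in WT Th0, against 10.68, 10.53 and 10.45 in WT naive (change -1.56, SE 0.15), and Ifngr2 and Il6st were 2.61-fold and 2.35-fold lower. Of 18 tested inhibitors, STATs and Janus kinases 4 were higher and 5 lower (22.2% and 27.8%), and after another quantile normalization 4 and 9. Cish, another STAT5-induced inhibitor, had 9.38, 9.66 and 9.68 in WT Th0, against 6.24, 6.42 and 6.15 in WT naive (change 3.3, SE 0.21, 9.86-fold) and Socs1 rose 3.19-fold, beside Socs2, while Socs3 was 2.06-fold lower and Stat5b 1.58-fold lower.

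Lineage and effector transcription factors were lower more often than higher, 14 against 9 of 37 tested (37.8% and 24.3%, against 22.3% and 31.2% of all genes). Foxp3, the factor of regulatory T cells, was the largest riser, with 10.7, 11.23 and 10.78 in WT Th0, against 7.88, 7.18 and 6.92 in WT naive (change 3.58, SE 0.35, 11.9-fold, adjusted p = 1.6e-09). Bhlhe40, needed for cytokine production by helper cells, had 9.48, 10.09 and 9.94 in WT Th0, against 7.06, 7.21 and 7.16 in WT naive (change 2.7, SE 0.22), Ikzf4 and Ikzf2, which encode Eos and Helios, rose 3.26-fold and 3.63-fold, and Irf8 rose 3.02-fold. A further probe set of Irf8 had a change of 0.427. Tbx21, which encodes T-bet, had 6.57, 7.27 and 6.21 in WT Th0, against 5.82, 5.85 and 5.73 in WT naive (change 0.89, SE 0.24, 1.85-fold). Gata3 had 8.43, 8.74 and 8.74 in WT Th0, against 8.52, 8.56 and 8.59 in WT naive (adjusted p = 0.72), and its sign turned under 2 scalings. Bcl6, the factor of follicular helper cells, was 2.77-fold lower and Ikzf3 3.71-fold lower.

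Markers of regulatory and memory cells, which a naive gate should leave out, were higher more often than lower. Of 17 tested markers 9 were higher and 3 lower, with a median change of 1.31. The rises include Il2ra, Il2rb and Cd44, given above with the activation molecules, and Foxp3 and Ikzf2, given with the transcription factors. The count is therefore not separate from those above. S100a6 had 9.59, 9.52 and 9.77 in WT Th0, against 4.91, 5.4 and 5.06 in WT naive (change 4.5, SE 0.32, 22.7-fold) and the chemokine receptor gene Ccr2 had 7.16, 7.55 and 8.34 in WT Th0, against 4.31, 4.16 and 4.54 in WT naive (change 3.35, SE 0.39), while Ly6c1 was 3.35-fold lower and Cxcr5 2.28-fold lower. Gpr83, a gene high in regulatory cells, had 7.48, 7.61 and 7.58 in WT Th0, against 8.14, 7.7 and 7.92 in WT naive, and Izumo1r, folate receptor 4, had 8.19, 8.16 and 8.04 in WT Th0, against 8.57, 8.53 and 8.54 in WT naive. Neither gene was called, although all WT Th0 samples lay below all WT naive samples in both, as in 3546 of all 13082 genes. The called falls of this list were Ly6c1, Cxcr5 and Maf, the last with a change of -0.932. Lrrc32, which activated regulatory cells display, had 11.29, 11.56 and 11.45 in WT Th0, against 7.19, 5.29 and 5.06 in WT naive (change 5.59, SE 0.46), and without WT naive 1 its rise was 76.7-fold and that of Foxp3 14.5-fold. More cells with Foxp3 and more Foxp3 RNA in each cell cannot be told apart here.

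Most markers of other cell types were near or below the filter in both groups. Of 12 measured B cell markers 5 passed the filter, and the list's median level was 4.33 to 4.63 in WT Th0 and 4.41 to 4.49 in WT naive. Exceptions were Ighm, high in all 6 samples, Cd8b1 and Nkg7. Ighm lay at 12.06, 11.82 and 12 in WT Th0 and 11.84, 11.82 and 11.78 in WT naive, while Ms4a1 lay at 3.12 to 3.28 in WT Th0 and 3.41 to 3.68 in WT naive. The class II gene H2-Ab1 was called higher, with 5.97, 5.85 and 6.12 in WT Th0, against 4.84, 4.75 and 4.88 in WT naive. Of 17 measured myeloid markers 6 passed, at list medians of 4.32 to 4.47 and 4.26 to 4.47. Cd8a lay at 4.85 to 5.08 in WT Th0 and 4.94 to 5.17 in WT naive, and Cd8b1 had 7.9, 7.72 and 7.62 in WT Th0, against 8.71, 8.57 and 8.51 in WT naive (change -0.85, SE 0.21). Nkg7, given with the granule genes, was called higher. An array has no true zero, and the part of other cells in the results was not tested.

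Granule and killer cell genes were mixed in direction. Of 14 tested members 6 were higher and 3 lower (42.9% and 21.4%, against 31.2% and 22.3% of all genes). Beside Gzmb, Gzmc had 8.54, 8.03 and 8.76 in WT Th0, against 4.5, 4.7 and 4.54 in WT naive (change 3.86, SE 0.34, 14.6-fold) and Nkg7, a granule membrane protein, had 8.56, 9.84 and 8.96 in WT Th0, against 6.04, 6.05 and 5.9 in WT naive (change 3.12, SE 0.38, 8.7-fold). Prf1, the pore-forming perforin through which granzymes enter a target, had 6.0, 6.12 and 6.18 in WT Th0, against 8.41, 8.53 and 8.38 in WT naive (change -2.34, SE 0.15, 5.06-fold lower), and the NK receptor gene Klrd1 was 2.98-fold lower. Among chemokine receptors 5 of 16 tested were higher and 5 lower (31.2% each), near the shares of all genes. Ccr4, a skin homing receptor, had 8.96, 9.25 and 9.01 in WT Th0, against 4.39, 3.92 and 3.75 in WT naive (change 5.06, SE 0.23, 33.3-fold), Ccr8 rose 6.95-fold and Cxcr6 5.31-fold, while Cxcr4 had 8.58, 8.9 and 8.94 in WT Th0, against 11.54, 10.88 and 10.69 in WT naive (change -2.23, SE 0.35, 4.69-fold lower) and Gpr183 was 4.07-fold lower. Of the adhesion genes 11 of 21 were higher and 6 lower, with Itga2 and Itgb1, the chains of a collagen receptor, 8.13-fold and 4-fold higher, and Itga4, a chain of the VCAM-1 receptor, 8.87, 8.24 and 8.42 in WT Th0, against 11.23, 11.18 and 11.17 in WT naive (change -2.69, SE 0.20).

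Genes of the p53 and interferon responses rose in part. Of 18 tested p53 targets 11 were higher and 2 lower, with a median of 0.85, among them Phlda3 (3.53-fold), Zmat3 (3.06-fold) and, as above, Cdkn1a. Of 41 interferon-stimulated genes 18 were higher and 3 lower (14 and 3 without WT Th0 2), with a median of 0.51. Oas3, an antiviral synthetase, had 10.39, 10.21 and 10.24 in WT Th0, against 8.18, 8.1 and 8.45 in WT naive (change 2.04, SE 0.36, 4.1-fold) and Bst2, tetherin, rose 2.21-fold, while Oasl1 was 1.77-fold lower. Co-inhibitory and costimulatory receptors were 9 higher and 4 lower of 25 (36% and 16%, against 31.2% and 22.3% of all genes). Without WT Th0 2 they were 5 higher and 3 lower. Pdcd1, which encodes PD-1, had 6.9, 7.49 and 6.74 in WT Th0, against 6.3, 6.32 and 5.78 in WT naive (change 0.91, SE 0.28, adjusted p = 0.0072, and 0.063 without WT Th0 2), and was not called after another quantile normalization. Cd28 was 1.59-fold lower and Tigit 2.06-fold lower.

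Chromatin genes moved in both directions. Of 34 tested members 17 were higher and 9 lower. Uhrf1, which guides maintenance methylation at replication forks, had 9.78, 9.88 and 9.88 in WT Th0, against 5.85, 5.79 and 5.46 in WT naive (change 4.15, SE 0.42, 17.7-fold), Dnmt1, the maintenance methyltransferase, had 11.26, 11.29 and 11.34 in WT Th0, against 10.22, 10.1 and 10.11 in WT naive (change 1.15, SE 0.18), and Ezh2, the methyltransferase of Polycomb complex 2, rose 3.59-fold. Kdm6b, a demethylase of the Polycomb mark, had 8.66, 8.8 and 8.66 in WT Th0, against 10.78, 10.93 and 10.83 in WT naive (change -2.14, SE 0.11, 4.4-fold lower), and Kdm5b and Tet1 were 2.75-fold and 1.97-fold lower. A further probe set of Kdm6b had a change of -1.15. Trim28, the co-repressor removed in the KO mice, had 9.84, 9.67 and 9.77 in WT Th0, against 9.64, 9.71 and 9.31 in WT naive (change 0.21, SE 0.16, adjusted p = 0.28).

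Levels in the other stimulated WT conditions show which features of Th0 cells were shared, and they use the same naive samples, so they are given side by side without a test. Mki67 averaged 11.69 ± 0.06 in Th0, 11.49 ± 0.08 in Th1, 11.27 ± 0.11 in Th2, 11.1 ± 0.09 in Th17, 9.97 ± 0.36 in Treg and 5.80 ± 0.16 in naive cells (SD, n = 3 each). Socs2 averaged 11.58 to 12.14 in the 5 stimulated conditions and 4.93 in naive cells, and Slc16a5 4.78 to 5.01 in the stimulated conditions and 10.57 in naive cells. Gzmb was high in Th0 (10.4 ± 0.36), Th1 (11.38 ± 0.12) and Th2 (10.66 ± 0.38), lower in Th17 (6.12 ± 0.35) and in Treg cells (3.69 ± 0.14) within 0.3 of naive cells (3.41 ± 0.20). Gzmc had its highest mean in Th0, 8.45 ± 0.38, against 6.75 in Th1, 5.10 in Th2, 4.57 in Th17, 4.36 in Treg and 4.58 in naive cells. Foxp3 in Th0 (10.9 ± 0.28) lay between Treg (12.2 ± 0.18) and Th1 (8.30 ± 0.38), with 7.10 ± 1.0 in Th17, 7.33 ± 0.50 in naive cells and 5.99 ± 0.20 in Th2. Il7r was lowest in Th0, 10.01 ± 0.49, against 11.34 to 11.95 in the other stimulated conditions and 12.41 in naive cells. Ifng at 10.37 in Th1, Il4 at 8.57 in Th2 and Il17a at 8.64 in Th17 stood far above their Th0 means of 5.73, 4.90 and 4.11.

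**Figure D4:**
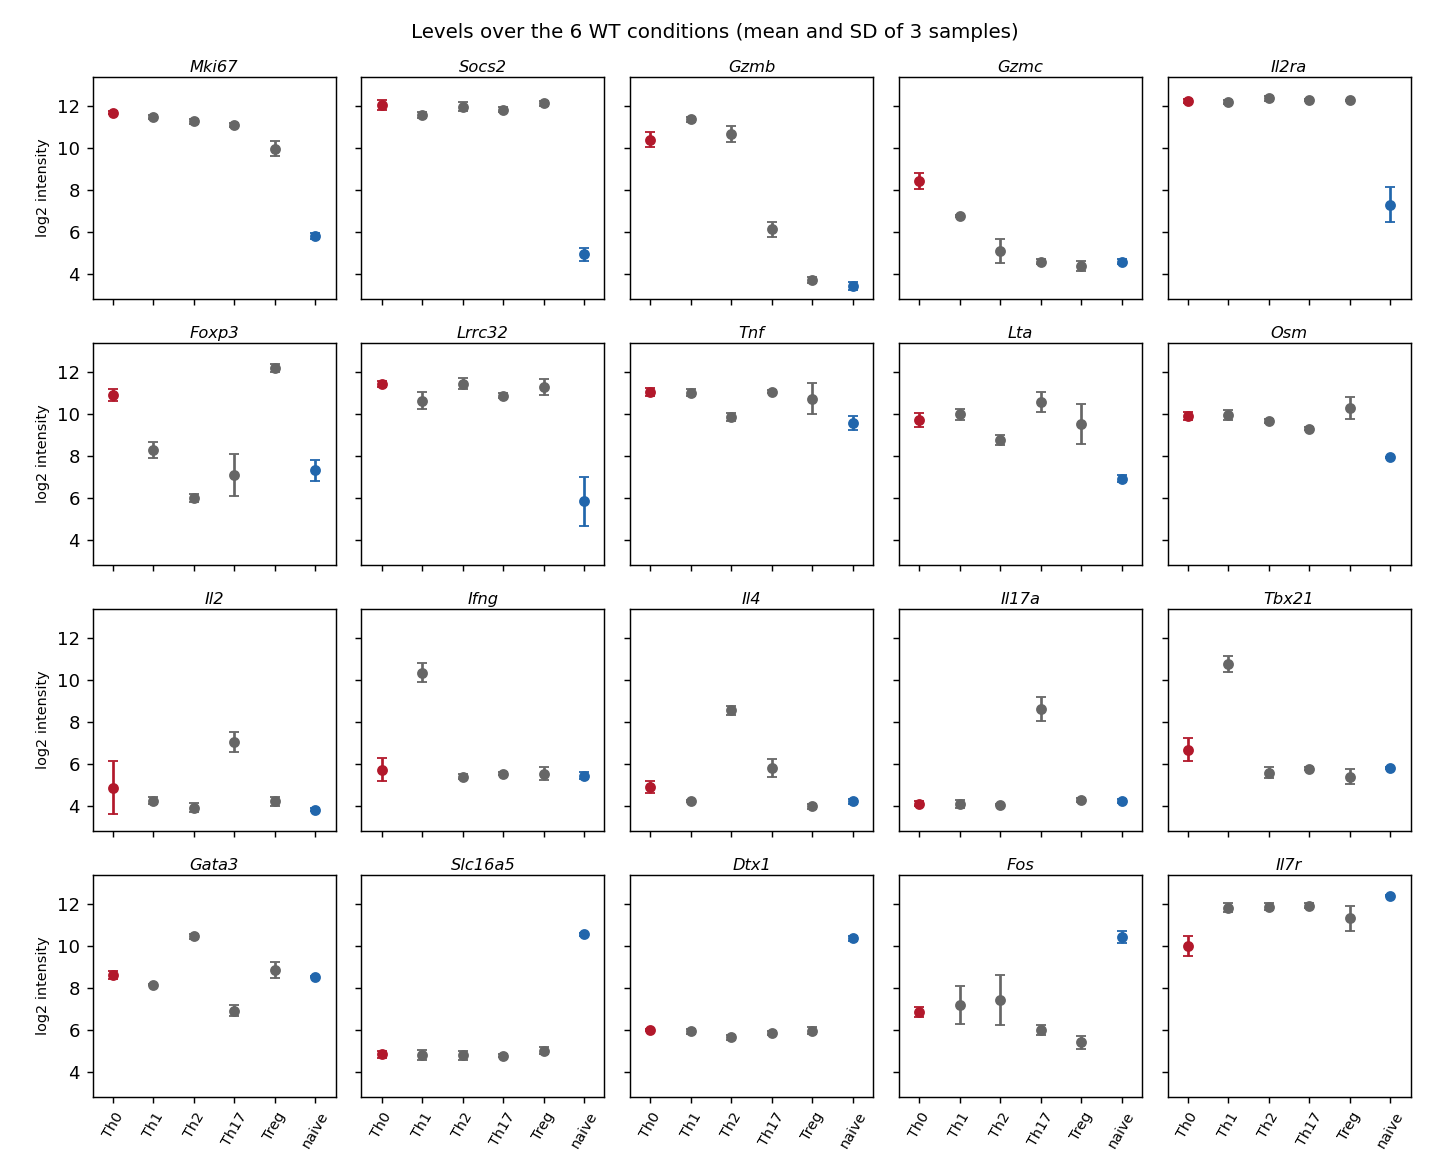
Mean log2 intensity of 20 genes in the 6 WT conditions, with the SD of 3 samples as whiskers, WT Th0 in red and WT naive in blue. Il2ra and Socs2 are alike in the 5 stimulated conditions, Gzmc is highest in Th0, and Ifng has its highest mean in Th1, Il4 in Th2 and Il17a in Th17.

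The response of KO cells was compared with that of WT cells by the difference of the stimulation effects, which shares no sample between the genotypes. Sex was not balanced. By Xist, 2 of the 3 KO naive samples and 1 of the 3 WT naive samples came from females, and all KO Th0 and WT Th0 samples from males. The difference passed for 2418 genes, 1055 higher in KO (8.06%) and 1363 lower (10.4%). Where a gene called higher in WT passed, its rise in KO was weaker or reversed in 1206 and stronger in 63. Where a gene called lower passed, its fall was weaker or reversed in 713 and stronger in 17. A weaker change in KO was thus common beyond the lists below. The WT samples enter both the call and the difference. Trim28 had 6.06, 6.04 and 5.68 in KO Th0 and 7.86, 7.20 and 7.65 in KO naive, below every WT sample. KO Th0 1 stood apart, with Mki67 at 8.61 against 10.86 and 10.64 in KO Th0 2 and 3, and without it 665 genes were higher and 848 lower. Without WT naive 1 the counts were 693 and 1062, and with sex, read from Xist, as a term in the fit (added after seeing the data) they were 1236 and 1280.

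Replication, mitosis and sterol genes, which rose in WT cells, often had a lower change in KO cells. Of 49 DNA replication genes 48 passed with a lower change in KO, by a median of -1.4, and 41 without KO Th0 1. Of 48 mitosis genes 40 passed lower, by a median of -1.84, but 15 without KO Th0 1, so this count rests in good part on that sample. Of 30 sterol and fatty acid genes 23 passed lower, and 19 without KO Th0 1. Fads2 had 5.39, 7.47 and 7.33 in KO Th0 and 4.84, 4.43 and 4.66 in KO naive, a difference of -3.95 (SE 0.79, adjusted p = 0.0013). Scd1 had 4.53, 5.23 and 5.27 in KO Th0 and 4.39, 4.08 and 4.37 in KO naive, a difference of -3.75 (SE 0.68). Ccn3, a matricellular protein gene that rose 14.9-fold in WT, had 4.68, 5.02 and 5.40 in KO Th0 and 4.93, 4.82 and 4.55 in KO naive, a difference of -3.63 (SE 0.32). Upk1b, a uroplakin that was low in both WT groups (4.34 ± 0.09 in Th0 and 4.41 ± 0.07 in naive cells), had 5.30, 6.16 and 7.0 in KO Th0 and 11.38, 9.72 and 9.51 in KO naive.

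Genes of the naive state also often fell less in KO cells. Of 30 naive and quiescence genes 17 passed with a higher value of the difference and 1 with a lower one, and 10 and 0 without KO Th0 1. Il7r had 11.79, 11.45 and 12.08 in KO Th0 and 12.2, 12.24 and 12.06 in KO naive, a difference of 2.01 (SE 0.36, adjusted p = 0.00062). The next 2 genes are not in this list and were named for their large differences. St8sia6 had 10.27, 9.03 and 10.24 in KO Th0 and 10.29, 10.48 and 10.54 in KO naive, a difference of 2.7 (SE 0.47). Pde2a, a phosphodiesterase of cyclic nucleotides, was 5.01-fold lower with stimulation in WT. It showed no fall in KO, with 9.05, 8.37 and 9.01 in KO Th0 and 7.98, 8.16 and 8.86 in KO naive. The changes of Socs2 and Gzmb were not called different. Socs2 differed by -0.62 (SE 0.39, adjusted p = 0.30) and Gzmb by -2.35 (SE 0.99, adjusted p = 0.10), or by -1.16 without KO Th0 1, in which Gzmb had 5.84 against 9.14 and 9.62 in KO Th0 2 and 3.

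**Figure D5:**
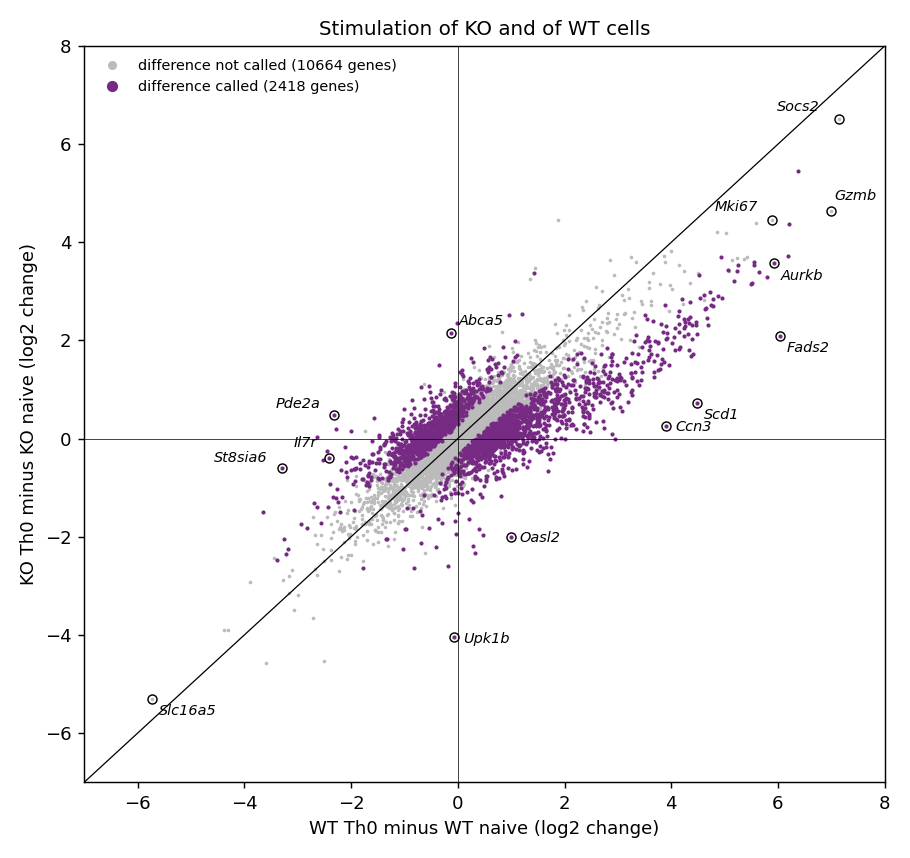
Log2 change with stimulation in KO cells (vertical) against WT cells (horizontal) for 13082 genes; purple marks the 2418 genes whose difference was called, and the line is identity. Fads2, Scd1 and Ccn3 lie far below the line, and Pde2a and St8sia6 above it.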

How the data were processed

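The log2 values were deposited by the authors as a series table of 36 mouse arrays, normalized with RMA (oligo, R 3.1.0, per the submitters' processing notes), from RNA purified on spin columns with DNase per the labels' protocols. The step behind each value (background correction, quantile normalization, probe summary) limits comparison to 1 gene across samples. Of 41345 probe sets, 23521 had 1 symbol in the platform annotation, 1814 several and 16010 none. The set with the highest mean stood for a gene (22180 genes), and the 13082 genes above the table's median in at least 3 samples were tested. Members of a list below that filter are not in its counts: 65 of 336 zinc-finger genes, 11 of 17 myeloid markers, 7 or fewer in each other list.

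All 36 samples entered 1 fit of the 12 group means in limma 3.58.1 (R 4.3.3), with Benjamini-Hochberg adjustment over all genes tested. The KO response was compared by the difference of the stimulation effects. On simulated data, with far fewer changed genes than the real comparison, 86.6% of 67 genes changed by 1 log2 unit were recovered. Named genes were the 15 largest rises and falls, the largest KO differences, the leading members of each list and a set of genes read whatever their value. The largest rises and falls were limited to called genes with separated groups. They and the largest KO differences were limited to characterized genes that are not sex-linked. The members and lists were chosen with earlier results of these data known. Alternatives were the filter, the rule for probe sets, the scaling, the variance model, the replicate block, leaving out each sample and, added after seeing the data, sex read from Xist above or below 8. Some genes of that set are not reported here. Motifs were searched in Python 3.11.15.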

Additional observations from a re-analysis of the deposited data

Results flagged for a closer look

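The effect of stimulation differed between KO and WT cells, by the interaction test in limma, for 2418 of 13082 genes. Values below are differences of log2 changes, KO minus WT, and the genes were chosen for a large change in WT cells, for a large difference or as genes read whatever their value, so they do not stand for all genes.

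Among genes with a large change in WT cells, the difference was negative for Lilrb4a (-0.92), the histone genes H1f5 (-1.84) and H2bc12 (-2.47), and the cell cycle genes Aurkb (-2.35), E2f8 (-2.5), Nuf2 (-2.26), Cdk1 (-1.95), Prr11 (-2.01), Kif15 (-2.34) and Esco2 (-2.34). Without KO Th0 1, in which proliferation genes were low, the difference was called for H2bc12, Aurkb and E2f8 only, with adjusted p of 0.13 for Lilrb4a, 0.056 for H1f5, 0.11 for Nuf2, 0.14 for Cdk1, 0.097 for Prr11, 0.063 for Kif15 and 0.098 for Esco2 by limma. Cdk1 and Lilrb4a were also not called without WT naive 1 (adjusted p = 0.055 and 0.11) or WT Th0 2 (0.057 and 0.1). The difference was positive for genes that fell in WT cells, namely Rflnb (2.17), Dusp10 (0.91), Mctp2 (1.21), Sik1 (0.87) and Tnfaip3 (0.93). Sik1 was not called without KO Th0 1 (adjusted p = 0.088) or WT naive 1 (0.065), Tnfaip3 without KO Th0 1 (0.2), WT naive 1 (0.097) or WT Th0 2 (0.077), and Mctp2 without WT Th0 2 (0.081). The largest differences were those of Upk1b (-3.98), Fads2 (-3.95), Scd1 (-3.75), Ccn3 (-3.63) and Oasl2 (-2.99), and those of Pde2a (2.8), St8sia6 (2.7), Sidt1 (2.48), Abca5 (2.28) and Tmie (2.21). These last 10 genes passed without KO Th0 1 as well.

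Among the genes read whatever their value, the difference was negative for Trim28 (-1.85), Il2ra (-1.23), Mcm2 (-1.57), Ccnd3 (-0.62), Slc2a1 (-0.73), Hk2 (-1.51) and Slc7a5 (-1.64), and positive for Il7r (2.01), Klf2 (0.83), S1pr1 (0.66) and Cdkn1b (0.696). Klf2 was not called without KO Th0 1 (adjusted p = 0.055), S1pr1 without WT naive 1 (0.058), and Cdkn1b without KO Th0 1 (0.068), WT naive 1 (0.074) or WT Th0 2 (0.05).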

How the results depend on the processing

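Genes changed in WT Th0 against WT naive numbered 6327 to 6535 when 1 of the 6 samples was left out, 3573 to 3969 of them higher and 2538 to 2754 lower. All probe sets, named or not, gave 11898 calls, 6701 of them lower; more features were tested, and those without a symbol were lower more often (37.1%) than those with 1 (21.8%). Calling only at 2-fold or more left 1779 genes, 1228 higher and 551 lower, and 668 differences between KO and WT, 145 higher and 523 lower. Without that fold limit the differences numbered 1513 to 2509 when 1 sample was left out, 665 to 1252 higher in KO and 848 to 1445 lower, lowest without KO Th0 1. Same-numbered samples deviated together only weakly (correlations of 0.048, 0.028 and 0.074), and other pairs had -0.066 to 0.016. This does not settle whether the numbers pair the samples. A replicate block gave 4080 higher and 2859 lower genes and 1853 differences. Sex read from Xist as a term, added after seeing the data, gave 4185 higher and 2709 lower genes and 2516 differences. Of 347 named genes, 302 kept their direction and side of the threshold under every alternative run. The 6 reversals were in genes that were not called: Gata3 had a change of -0.079 after another quantile normalization and -0.0136 after cyclic loess, Cd4 0.0072 with array weights and between -0.0393 and 0.0144 with 1 sample left out (0.0144 without WT Th0 1), and Ifng between -0.0279 and 0.469 (-0.0279 without WT Th0 2), and Upk1b 0.0901 with sex as a term, and the cause was not tested. In simulated data 53.7% of 67 genes changed by 0.5 log2 units were recovered with 3 arrays a group, so small changes can be missed. Far fewer genes changed there than in the real comparison, which makes the adjusted threshold stricter. The share recovered therefore need not hold for the real comparison.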

Other observations

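Further gene groups were read in WT Th0 against WT naive. Of 24 apoptosis regulators 12 were higher and 4 lower, with a median change of 0.27. Of 28 lysosome and autophagy genes 9 were higher and 7 lower (32.1% and 25%), with a median of -0.02, and after another quantile normalization 9 and 12. Of 11 genes of MYC and its partners 4 were higher and 3 lower (36.4% and 27.3%). Of 9 chemokine genes 2 were higher and none lower, and 1 was higher without WT Th0 2 or without WT naive 1. Of 271 zinc-finger genes 79 were higher and 58 lower (29.2% and 21.4%, against 31.2% and 22.3% of all genes), and after another quantile normalization 50 were higher and 87 lower. No erythroid or platelet marker passed the filter.

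Probe sets with no gene symbol moved differently from the named ones. Of 9318 such probe sets tested, 773 were higher (8.3%) and 3453 lower (37.1%), with a median change of -0.33, and 1539 were lower by 2-fold or more. Of 13860 probe sets with 1 symbol, 4126 were higher (29.8%) and 3019 lower (21.8%), with a median of 0.04. Which transcripts these probe sets read was not analysed here, and the part of the array's scaling in this difference was not tested.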
